A study of Caenorhabditis elegans with 2 samples.

Results

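The genes described here are the nuclear protein-coding genes of Caenorhabditis elegans that are named for parts of the mitochondrial respiratory chain and ATP synthase. They were chosen by name (nuo-, sdha-, sdhb-, sdhd-, ucr-, cyc-, cox-, atp- and sco-), a choice made with earlier results of these data known, which gave 39 of the 19973 nuclear protein-coding genes in the Ensembl release 115 gene models of WBcel235. Of these, 6 belong to complex I, 4 to complex II, 6 to complex III, 2 encode cytochrome c, 7 encode subunits of complex IV, 9 encode factors that assemble complex IV, and 5 belong to ATP synthase. Genes of these complexes with other names, which include most genes of complex I, are not in the set and are described at the end. The question was how strongly a tagged fusion protein was found on chromatin at the start of each gene, and how the respiratory complexes differed in this.

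Chromatin immunoprecipitation with sequencing was carried out on whole L4 larvae of strain OP719, aged 66 hours and synchronised as starved L1 larvae after bleaching. The animals carried the transgene wgIs719, in which tag-97 is fused to TY1, EGFP and 3xFLAG and which also holds unc-119(+), in an unc-119 (tm4063) mutant background. The labels also name svh-5 as the target of the insertion, and the fusion was pulled down with an antibody against GFP after sonication to fragments of 200 to 800 bp. There were 2 biological replicates of this 1 group and no second group, so nothing below is a contrast between conditions, and a control precipitation was not analysed here. Whole animals were used, so the tissue in which a region was bound is not known.

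Oxidative phosphorylation passes electrons from NADH and succinate through complexes I, II, III and IV to oxygen, and the proton gradient built on the way drives ATP synthase. Its subunits come from both the nuclear and the mitochondrial genome, and complex IV needs a set of dedicated proteins to insert its heme and copper. In C. elegans, loss of several of these genes is well known for slow development and altered lifespan.

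A region's signal is the authors' own value for it, on a scale the sources used here do not state, so signals were compared within a list only. For each gene, the highest signal was taken among ranked regions with their summit in the promoter window, which reached from 1000 bp before the 5′ end of the gene to 200 bp after it. Its percentile is its place among the protein-coding genes that had such a region, from 0 for the weakest to 100 for the strongest. The joint ranked list, made from both replicates, held 118176 regions, most of them weak, and each replicate had a ranked list of its own with 83890 regions in replicate 1 and 68656 in replicate 2. The joint thresholded list held the 321 regions with an irreproducible discovery rate (IDR, low where regions hold their rank in repeated calling) of at most 0.01, and a gene with such a summit in its window is said to have a listed region. Read depth is unknown.

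Of the 39 genes, 4 had a listed region (10.3%), namely sco-1, cox-5B, cox-5A and atp-5, against 151 of all 19973 nuclear protein-coding genes (0.756%). Of the 4, 3 serve complex IV, the oxidase that ends the chain, and the fourth encodes a subunit of ATP synthase. No gene of complex I, II or III and neither cytochrome c gene had one. At a looser IDR of 0.05, 7 genes had their strongest region within the limit, against 331 of all protein-coding genes (1.66%), and the added ones were cox-6A, nuo-4 and cox-11. The limit of 0.05 was set after the values were seen. In the conservative list, in which the replicates were ranked against each other, 3 genes of the set had a summit (sco-1, cox-5B and atp-5), against 0.461% of protein-coding genes. The replicates' own thresholded lists gave 1 in replicate 1 (sco-1, against 0.195%) and 2 in replicate 2 (sco-1 and cox-5B, against 0.18%).

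The sequence under the summits of these genes is shown because it can be set beside the strength of the regions. Each run is the 101 bp centred on the summit, from the RefSeq genome of assembly WBcel235, read on the strand of the named gene, 5′ to 3′. Capitals mark 5 words of 6 bases, searched on both strands and chosen because listed regions hold them often. The word GGCCTA was in 10.3% of listed regions and 2.27% of all ranked ones, and CTAGGC was in 8.72% and 2.05%. The word GTACAC was in 8.41% of listed and 2.64% of ranked regions, the word GGCCAC was in 9.66% and 2.29%, and the word CTGCGC was in 7.17% and 1.43%. cox-5B is named only. The first run is chrII:4299384-4299484 on the plus strand at sco-1. The second is chrIII:12905152-12905252 (plus) at cox-5A, and the third is chrV:11124071-11124171 (minus) at atp-5. The last ones are chrIII:5080917-5081017 (plus) at cox-6A, chrIII:7159674-7159774 (minus) at nuo-4 and chrIV:13244267-13244367 (plus) at cox-11.
sco-1: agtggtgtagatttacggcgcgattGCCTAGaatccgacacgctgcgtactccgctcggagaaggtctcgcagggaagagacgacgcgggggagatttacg
cox-5A: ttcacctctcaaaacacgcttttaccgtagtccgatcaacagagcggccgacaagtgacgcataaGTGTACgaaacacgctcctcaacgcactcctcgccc
atp-5: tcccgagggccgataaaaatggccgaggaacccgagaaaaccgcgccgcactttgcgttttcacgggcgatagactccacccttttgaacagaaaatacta
cox-6A: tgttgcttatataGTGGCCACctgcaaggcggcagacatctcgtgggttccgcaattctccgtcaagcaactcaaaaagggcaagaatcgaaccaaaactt
nuo-4: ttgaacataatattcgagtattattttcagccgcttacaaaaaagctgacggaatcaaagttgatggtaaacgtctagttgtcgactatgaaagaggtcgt
cox-11: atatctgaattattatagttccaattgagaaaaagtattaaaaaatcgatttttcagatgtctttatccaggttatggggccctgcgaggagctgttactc

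The word CTAGGC occurred once at sco-1, on the reverse strand, and GTACAC once at cox-5A, also on the reverse strand. At cox-6A, GGCCAC occurred on both strands in overlapping copies. The word of cox-5A was also found at cox-5B, while atp-5, nuo-4 and cox-11 held none of the 5 words. Of the strongest regions of the 36 genes that had any, 5 held a word (13.9%), against 97 of the 321 listed regions (30.2%) and 8.86% of all 118176 ranked regions. The fifth gene was sdha-1, with the word of cox-5A. The first of the words listed above can share bases with the second, and the words are a description, not binding sites.

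Complex IV assembly held the strongest gene of the set. The gene sco-1 (WBGene00015297, chrII:4299653-4300845, plus strand) encodes a copper chaperone that, in yeast and human cells, delivers copper to a subunit of the oxidase. Its region, chrII:4299286-4299581, had a joint signal of 135, with 79.2 in replicate 1 and 60.0 in replicate 2. It ranked at percentile 99.9 of protein-coding genes in the joint list and at 99.9 and 99.8 in replicates 1 and 2, and its joint IDR was 0.000486. It was the single gene of the set with a listed region in every one of the 4 thresholded lists. The summit lay 219 bp upstream of the 5′ end between genes, no other gene's window held it, and the sequence aligned to 1 place in the genome. The replicates' summits were 10 and 15 bp from the joint one.

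The second copper-related gene of this group, cox-11, encodes a protein needed for copper insertion into the oxidase in yeast. Its joint signal was 56.5 (26.7 in replicate 1 and 33.4 in replicate 2), with the summit 7 bp upstream of the 5′ end of the gene (WBGene00010437, chrIV:13244324-13247160). Its joint IDR of 0.0361 kept it out of the listed regions, although the replicates' summits fell 1 and 10 bp from the joint summit. The 2 genes of heme A synthesis came lower: cox-10, which makes heme O, had a joint signal of 41.1, and cox-15, which turns heme O into heme A, had 37.1. In replicate 2 they had 18.3 and 24.2, and neither had a ranked region in replicate 1. The cox-10 summit was 849 bp upstream of its 5′ end and 70 bp downstream of that of Y38E10A.24, in a coding exon of that gene.

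The other assembly genes ranged down to the bottom of the set. The gene cox-16 had a joint signal of 43.4, 16.7 in replicate 1 and 36.0 in replicate 2. The replicates did not point to the same place here, since the strongest summit of replicate 1 was 477 bp from the joint one, which lay in a coding exon of the synaptonemal complex gene syp-2. The copper-binding protein gene cox-19 had 19.9 in the joint list and no ranked region in either replicate, and cox-18, whose yeast counterpart inserts a subunit into the membrane, had 8.76 and likewise none. The copper chaperone gene cox-17, which in yeast supplies sco-1's counterpart, had the lowest signal of all, 3.71 jointly, 4.83 in replicate 1 and 14.1 in replicate 2. In replicate 2 it was not the lowest, since cox-6B had 8.05 there, and its replicate summits were 178 and 464 bp from the joint one. The gene cox-14 had no ranked region in any list.

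**Figure D1:**
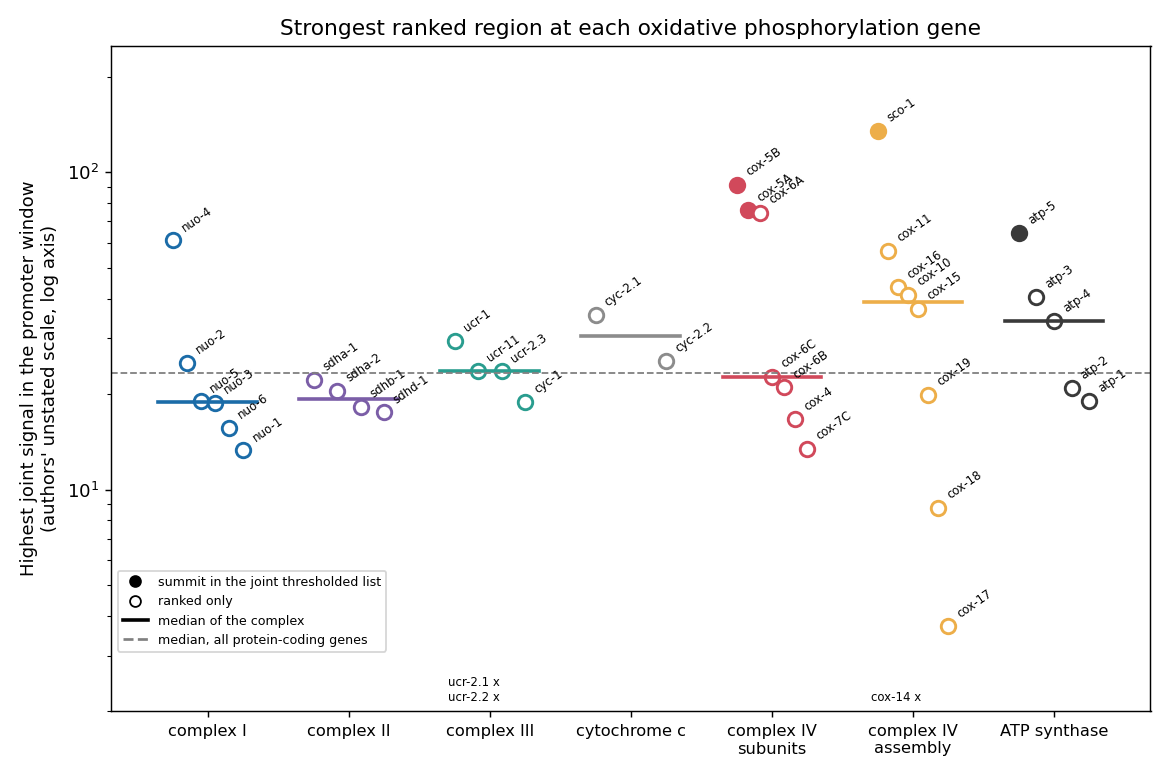
Highest signal of a joint ranked region in the promoter window of each gene (log axis, authors' unstated scale), by complex. Filled points had a summit in the joint thresholded list, short lines are medians, names followed by x had no region, and the dashed line is the median of all protein-coding genes at 23.4. Complex IV holds 3 of the 4 filled points but also the 2 lowest genes, cox-18 and cox-17.

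The subunits of complex IV fell into a strong and a weak part with a wide gap between them. The strong part began with cox-5B (WBGene00000371, chrI:9788725-9790050, plus strand), whose product binds zinc in the mature enzyme. It had a joint signal of 91.2, with 30.4 in replicate 1 and 54.9 in replicate 2, and a joint IDR of 0.00167. The region, chrI:9788597-9788892, covered the start of the gene, with the summit 20 bp downstream of the 5′ end in the 5′ UTR, and replicate summits 2 and 0 bp away. It was also in the thresholded list of replicate 2 and in the conservative list, but not in that of replicate 1, where its own IDR was 0.523.

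The next subunit, cox-5A (WBGene00012553, chrIII:12905491-12906619, plus strand), had a joint signal of 75.8, with 37.1 in replicate 1 and 27.5 in replicate 2. Its region, chrIII:12905054-12905349, had its summit 289 bp upstream between genes and aligned to 1 place. It was just inside the joint threshold at an IDR of 0.00919 and was absent from the other 3 thresholded lists. The subunit gene cox-6A was just outside it, with a nearly equal signal of 74.5 and an IDR of 0.0295. In the replicates cox-6A had 31.3 and 36.7, close to the values of cox-5A. In the conservative ranking the order was the other way, with an IDR of 0.0105 at cox-6A and 0.0201 at cox-5A, so the joint threshold does not set these genes apart.

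The region at cox-6A (WBGene00006519, chrIII:5081724-5082995) lay far from that gene, 757 bp upstream of its 5′ end. It was only 69 bp upstream of F54D8.7, a small nuclear RNA gene on the other strand, and its sequence aligned to 5 places in the genome. Which of these 2 genes the region belongs to cannot be told apart here. The other 4 subunit genes were weak: cox-6C had 22.7, cox-6B 21.1, cox-4 16.7 and cox-7C 13.4 in the joint list. None of these 4 had a ranked region in both replicates. In the single replicate that had one, the signal was 17.7 at cox-6C and 7.93 at cox-4 (replicate 1), and 8.05 at cox-6B and 13.5 at cox-7C (replicate 2). The region at cox-6B aligned to 7 places. The rank of cox-6B also depended on the window: percentile 40.3 here, 65.4 with all transcript starts and 92.4 with a window from 2000 bp upstream.

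Among the 5 atp- genes of ATP synthase, the 3 of the peripheral stalk, which holds the catalytic head still, had the higher joint signals: atp-5 (subunit d) 64.4, atp-3 (oligomycin sensitivity conferral protein) 40.5 and atp-4 (coupling factor 6) 33.9. The genes of the head itself had lower ones, 20.8 for atp-2 (beta subunit) and 19.0 for atp-1 (alpha subunit), both under the median of 23.4 over all protein-coding genes. With 5 genes this order is a description. Among ATP synthase genes of other names, the stalk subunit b genes asb-2 (45.0) and asb-1 (25.0) also lay above the 2 head genes. The asb-1 value had no ranked region in either replicate beside it. However, hpo-18, which encodes a subunit outside the peripheral stalk, had 37.6, above atp-4 and asb-1. In single replicates the order of the atp- genes was less clear. The stalk gene atp-3 had 15.97 in replicate 1, at a summit 421 bp from the joint one and near the 14.5 of atp-2, and 29.2 in replicate 2, above the 13.0 of atp-2 and the 15.1 of atp-1. The stalk gene atp-4 had a region in neither replicate. Except at atp-5, the summits lay inside neighbouring genes. They were in coding exons of F27C1.2 (for atp-3), C34E10.10 (atp-2) and mcrs-1 (atp-1), and in the 3′ UTR of alh-4 (atp-4). When each region went only to the nearest 5′ end, atp-4 alone of these 5 genes kept a region. The order therefore compares regions that mostly lie in other genes.

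The region at atp-5 (WBGene00007385, chrV:11122901-11123867, minus strand) had nearly equal signals in the replicates, 37.7 in replicate 1 and 41.7 in replicate 2. The summits lay 10 and 11 bp from the joint one, and the joint IDR was 0.00363. It was in the conservative list but in neither replicate's own thresholded list. It stood in a divergent promoter: the summit of chrV:11123973-11124268 was 254 bp upstream of atp-5 and 65 bp upstream of lmtr-3, a gene of the Ragulator complex that reads amino acids at the lysosome, on the plus strand. With each region given only to the nearest 5′ end, a reading added after the data were seen, atp-5 lost its region and 3 of the 39 genes kept one.

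Complex I takes electrons from NADH and is the largest enzyme of the chain. Of its 6 nuo- genes, 5 had a joint signal of at most 25.1, and the highest was nuo-4, an accessory subunit, which had a joint signal of 61.0, with 20.4 in replicate 1 and 25.7 in replicate 2. That region was 915 bp upstream of nuo-4, near the far edge of the window, in a coding exon of the neighbouring splicing factor gene rnp-7. Its joint IDR was 0.0430, and the summit of replicate 1 was 97 bp from the joint one. The next gene, nuo-2, had 25.1, and the genes of the flavoprotein and iron-sulfur subunits that pass electrons on were weaker, with 19.0 at nuo-5 and 13.3 at nuo-1. Accessory subunit genes nuo-3 and nuo-6 had 18.8 and 15.7. Of the 6 genes, 5 had a joint IDR above 0.5.

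Complex II feeds electrons from succinate into the chain. Its 4 genes in the set lay close together, and spanned 17.5 at sdhd-1, the membrane anchor, to 22.2 at sdha-1, a flavoprotein gene on chromosome X. The paralogue sdha-2 had 20.5 and the iron-sulfur subunit gene sdhb-1 had 18.2. In the replicates, sdha-1 had a region in replicate 2 only (20.5), sdha-2 in replicate 1 only (7.502), and the other 2 genes in neither. The summit at sdha-1 was 76 bp upstream of its 5′ end, in an exon of the small nucleolar RNA gene D2021.6. The region at sdhd-1 aligned to 19 places. The fourth kind of subunit, encoded by mev-1 outside the set, had a higher signal of 46.6.

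Complex III, which hands electrons to cytochrome c, had no strong region either. The core protein gene ucr-1 led it with a joint signal of 29.4. In replicate 2 its strongest summit was 49 bp from the joint one (18.1), while in replicate 1 it was 907 bp away, at a different region (10.7). It was followed by ucr-11 (23.7), ucr-2.3 (23.6) and the cytochrome c1 gene cyc-1 (18.9). The paralogues of ucr-2.3 on chromosome X, ucr-2.1 and ucr-2.2, had no joint region, and ucr-2.1 had one of signal 9.16 in replicate 1. Of the 2 cytochrome c genes, cyc-2.1 had 35.5 (22.4 in replicate 1 and 23.6 in replicate 2) and cyc-2.2 had 25.4 (10.4 and 13.8).

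The region used for cyc-2.1 lay in a coding exon of the ribosomal protein gene rpl-20. That region was also in the window of Y17G9B.5, a protein-coding gene on the plus strand, 856 bp upstream of its 5′ end. A much stronger listed region, chrIV:4749919-4750214 with a signal of 135, had its summit 1055 bp upstream of cyc-2.1 and so just missed the window. This stronger summit lay between the weaker region and the 5′ end of Y17G9B.5, so it was nearer to Y17G9B.5 than to cyc-2.1. In a window that reached 2000 bp upstream, or when any overlap with the window counted, cyc-2.1 joined the genes with a listed region and made them 5.

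Set side by side, the complexes overlapped widely. In the joint list, the median percentile was 90.2 for complex IV assembly (8 of 9 genes with a region), 82.5 for ATP synthase (5 of 5), 71.6 for cytochrome c (2 of 2), 50.9 for complex III (4 of 6), 47.2 for complex IV subunits (7 of 7), 33.98 for complex II (4 of 4) and 32.2 for complex I (6 of 6). This order was not kept in single replicates. The median for complex IV subunits was 96.98 in replicate 1 and 94.3 in replicate 2 (5 genes each), the highest in both, and that for complex IV assembly was 80.5 (4 genes) and 93.4 (6 genes). ATP synthase had 62.4 in replicate 1 and 70.2 in replicate 2, cytochrome c had 57.7 and 61.5, and complex III had 44.3 and 34.6. Complex I had 29.1 (3 genes) and 77.5 (2 genes), and complex II had 13.8 and 77.0 from 1 gene each. All complex IV genes together had a median of 87.8 and complex I 32.2, a difference of 55.6 points, which was 65.4 in replicate 1 and 16.8 in replicate 2. The 87.8 was the value of cox-15 and sat at the edge of a wide gap, since the next complex IV gene below was cox-6C at 47.2. With the assembly genes left out the difference was 15.0 points in the joint list. The contrast also depended on which complex I genes were counted. With 26 further genes of complex I, added after the data were seen (the ndu- genes, gas-1 and lpd-5), the complex I median was 59.7 (28 of 32 genes with a region) and the difference 28.1 points, or 36.9 in replicate 1 and 47.8 in replicate 2. In the joint list, 59.7 lay above the 47.2 of complex IV subunits alone, while in each replicate the wider complex I median lay below theirs. No test was made over genes, because they are not replicates.

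As a set, the 39 genes did not stand above other genes in the middle of their range. Their median joint signal was 23.1 (36 genes with a region), against 23.4 over the 16108 protein-coding genes with one, and 18 of the 36 lay above that median. The median percentile was 48.9 in the joint list. In single replicates it was higher, 62.4 in replicate 1 (23 genes with a region) and 71.1 in replicate 2 (24 genes). A region was found for 92.3% of the set in the joint list, against 80.6% of protein-coding genes. In replicate 1 the shares were 59.0% of the set and 52.9% of protein-coding genes, and in replicate 2 they were 61.5% of the set and 57.7% of protein-coding genes.

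The joint IDR that defines the strong genes is itself a measure of reproducibility, so agreement between replicates at these genes is in part built in and is given as a description. For all 7 genes with a joint IDR of at most 0.05, each replicate's strongest summit was within 100 bp of the joint one, against 237 of the 331 protein-coding genes at that IDR (71.6%). Over all genes with a joint region the numbers were 8 of 36 for the set and 2252 of 16108 (14%) for protein-coding genes, and the eighth gene was cyc-2.1. Across the 17 genes with a region in both replicates, which are not independent replicates and share their libraries, the Spearman correlation of the 2 signals was 0.760, against 0.214 over 7187 protein-coding genes. Without the genes with a listed region it was 0.599 over 13 genes, and without the 7 strong genes it was 0.261 over 10 genes. The genes left out were chosen by a measure of reproducibility, so a lower value without them is in part built in.

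**Figure D2:**
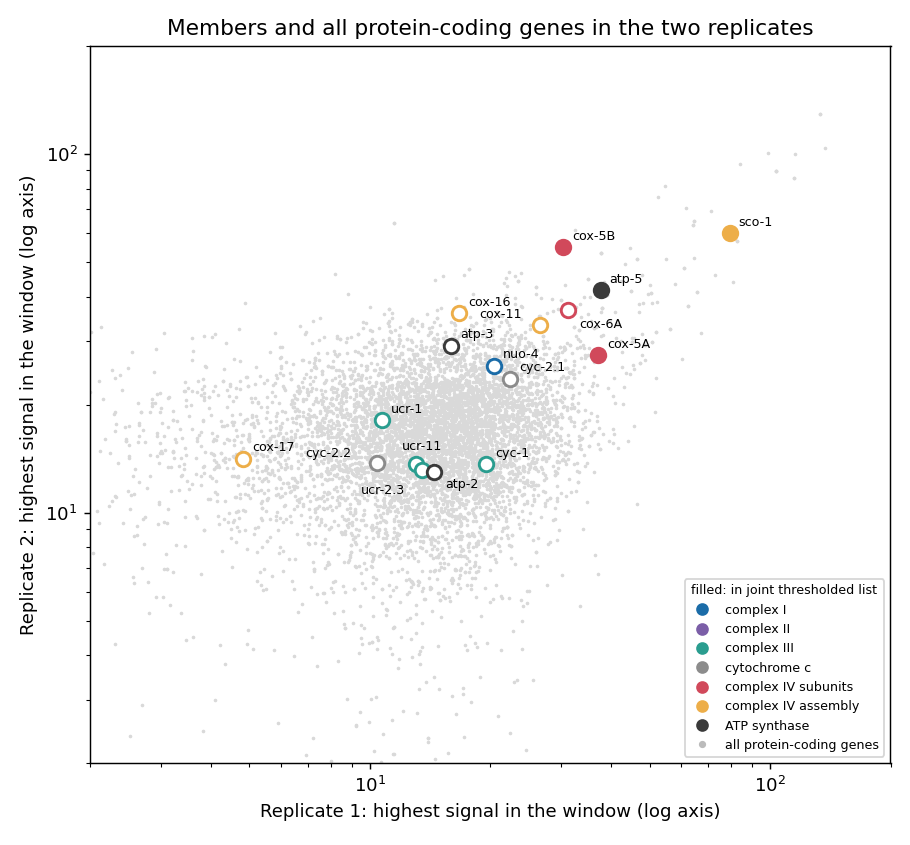
Highest signal in the promoter window in replicate 1 (horizontal) and replicate 2 (vertical), log axes, for the 17 genes of the set with a region in both and for protein-coding genes (grey). Filled points had a summit in the joint thresholded list. sco-1, at 79.2 and 60.0, lies apart from the other genes of the set.

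Summits did not gather at 1 distance from the gene start. The median position was 338 bp upstream for the 36 genes, against 392 bp for all protein-coding genes with a region. Of the 36 summits, 12 lay between genes, 5 inside the gene itself and 19 inside another gene, 11 of those in a coding exon. Neither these counts nor those of shared windows were made over all protein-coding genes, so they do not set these genes apart. Windows of other genes shared the strongest region of 19 genes, and for 7 of them one of those genes had the nearer 5′ end. That count leaves out nearer genes whose own window did not hold the summit. With regions given to the nearest 5′ end of any gene, atp-1, atp-2, cox-7C and sdhd-1 also lost their regions. In that setting cox-16 fell from percentile 94.3 to 78.9 and ucr-2.3 from 50.6 to 27.2. The strongest region of 32 of the 36 genes aligned to 1 place in the genome, and 11.1% aligned to more, against 20.8% of all protein-coding genes with a region.

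**Figure D3:**
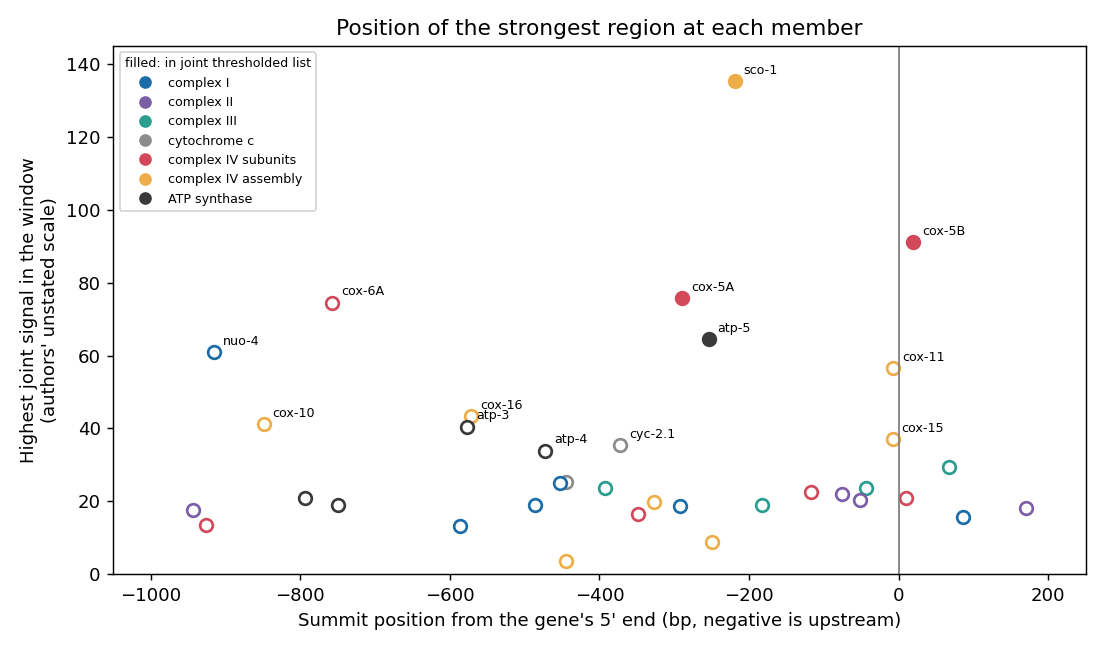
Position of each gene's strongest summit relative to its 5′ end (bp, negative upstream) against its joint signal (authors' unstated scale). Filled points had a summit in the joint thresholded list. The 4 filled points lie between 289 bp upstream and 20 bp downstream, while cox-6A and nuo-4 lie 757 and 915 bp upstream.

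The regions of the 4 genes with a listed region were rich in G and C. The 101 bp around the summit had a GC content of 58.4% at sco-1, 57.4% at cox-5B, 53.5% at cox-5A and 52.5% at atp-5, against a median of 37.6% over the 36 genes, 47.5% over listed regions and 38.6% over all ranked regions. High GC content also occurred at weak regions, with 62.4% at cyc-2.1 and 58.4% at atp-1. Of the other genes with an IDR under 0.05, cox-6A had 48.5%, while cox-11 at 34.7% and nuo-4 at 36.6% were low. The part of base composition in the signal was not tested.

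Other genes of mitochondrial energy metabolism were described in the same way. The further respiratory chain genes, 35 genes with other names such as the nduf- and ndub- subunits of complex I, gas-1 and isp-1, had 0 listed regions and 0 at an IDR of 0.05. The median percentile was 48.9 for the set and 65.5 for these genes (29 with a region). Their highest signal was 46.6, at the complex II gene mev-1, so none of them reached the signals of the 7 strongest genes of the set. The 15 citric acid cycle genes had 1 listed region, at suca-1 (64.0), and the 70 mitochondrial ribosomal protein genes had 1, at mrps-28 (57.5).

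The gene suca-1 lies at 10.9 Mb on chromosome X, inside a stretch of that chromosome with raised signal, where ranked regions had a median of 26.0 against 18.6 on the rest of X. The 3 X-linked genes of the set lie outside that stretch. Ubiquinone synthesis (8 genes), mitochondrial import (13) and nucleotide carriers (4) had no listed region, and their highest signals were 34.4 at coq-2, 34.2 at timm-23 and 31.5 at ant-1.2. The vacuolar ATPase, a rotary enzyme outside mitochondria, had none among 20 genes, and its highest signal was 56.7, at 1 region in the windows of both vha-1 and vha-2. Through that region (IDR 0.0275), 2 of the 20 genes (10%) met the IDR of 0.05, against 1.66% of all protein-coding genes. At that limit the citric acid cycle had 1 of 15 genes and the mitochondrial ribosomal proteins 2 of 70. At the 0.756% seen over all genes, a list of up to 35 genes holds less than 1 gene with a listed region on average, so a count of 0 says little.

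**Figure D4:**
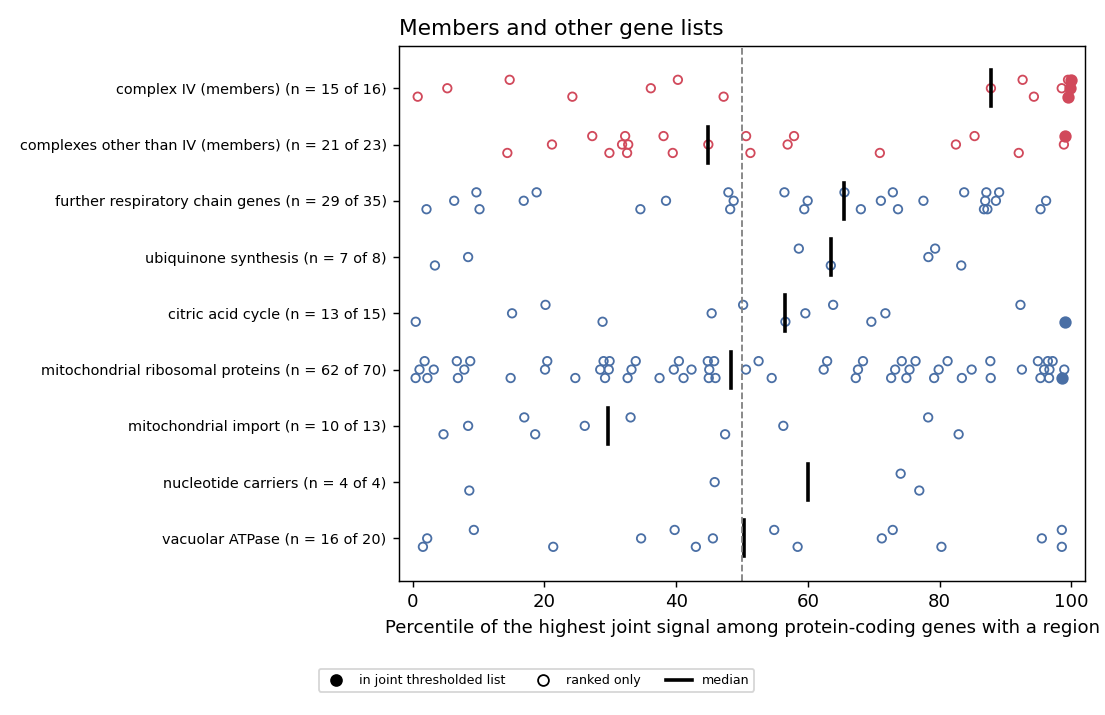
Percentile of each gene's highest joint signal among protein-coding genes with a region, for the set (red, complex IV and the other complexes) and for other gene lists (blue). Filled points had a summit in the joint thresholded list and bars are medians. Complex IV has a median of 87.8 with genes at both ends, and the further respiratory chain genes have a median of 65.5 with no filled point.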

How the data were processed

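Chromatin immunoprecipitation signal was studied in 2 replicates through 8 region lists on the ce11 build, 4 ranked and 4 thresholded. The signal that the authors deposited is 1 value per region, set when peaks were called, and no label states its scale. The score column deposited by the authors rises with reproducibility, and the −log10 of the global IDR deposited in the ranked lists was turned back into an IDR. Depth per replicate is unknown, and the aligner and peak caller are both not given in the sources used here. A further 16 columns describing the inputs of the series-wide rankings were not used.

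Regions were placed on Ensembl release 115 gene models and the RefSeq genome of WBcel235, whose chromosome lengths hold all regions. Genes were singled out by rule (those in a thresholded list, the 12 strongest, the extremes of each complex and those without a region), and values of other members and related genes were added beyond it. The members and lists were chosen with earlier results of these data known. Complexes were set by gene name, complex IV assembly being cox- numbered 10 and above with sco-1. Genome places were counted with blastn 2.17.0 (alignments of at least 100 bp at 80% identity). Window assignment was tested on simulated data. Other steps used Python 3.11.15, NumPy 2.4.6, pandas 2.3.3 and matplotlib 3.10.9. With 1 group, no test between samples could be made, and none was made over genes. Alternatives covered the window, the lists, repeats and assembly genes.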

Additional observations from a re-analysis of the deposited data

How the results depend on the processing

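The count of 4 genes with a listed region was between 3 and 5 under the other windows, the overlap rule, all transcript starts, the conservative list, without assembly genes and without repeated regions. It was 1 at an IDR of 0.001 and 7 at an IDR of 0.05, and it ranged from 1 to 2 when either replicate was left out (1 without replicate 2, 2 without replicate 1). sco-1 was counted in each setting that kept assembly genes. The median percentile of the set, 48.9, was 61.7 when the window ran from 500 bp before to 100 bp after the 5′ end and 65.7 when it began 2000 bp before. It was 55.8 with regions given to the nearest 5′ end only, a setting chosen after seeing the data, as was the IDR of 0.05, and from 62.4 to 71.1 without one replicate. The difference between complex IV and complex I kept its sign in every setting run, but each setting changed 1 choice only. It was 15.0 points without assembly genes, 28.1 points with the further complex I genes and from 16.8 to 65.4 points without one replicate. No assembly genes were counted for complex I. With both gene changes made, the order turned in the joint list, with medians of 47.2 for complex IV subunits and 59.7 for the wider complex I. It did not turn in replicate 1 (96.98 and 57.5) or in replicate 2 (94.3 and 46.5). Under other settings, 23 medians of single complexes moved by more than the spread between replicates and 46 did not. That spread was itself uneven, at 1.9 points for complex IV subunits and 44.7 for complex II, which had 1 gene in each replicate. A median that did not move is therefore not shown to be stable. Of the values of single genes, 78 moved by more than a spread and 225 did not. Leaving out assembly genes could not change the values of other genes or complexes, and the single-replicate settings also set the spread. The counts of values that did not move are therefore in part built in. Genes without a region in both replicates were given the median spread of the genes that had one in both. Settings in which a gene had no region were left out of these counts. Under the other windows and rules for assigning regions, the median for complex IV subunits, 47.2, ranged from 41.4 (overlap rule) to 92.4 (2000 bp window). With all transcript starts it was 65.4. The cause of these shifts was not tested. Medians in single replicates cover only genes with a region there, and the unknown read depth limits what a missing region means. No paired analysis was possible because there was 1 group.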
